A study of Mus musculus with 16 samples.

Results

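Immune checkpoint genes encode receptors and ligands that restrain immune cells, and costimulatory genes encode their activating counterparts. The 10 genes described here are Pdcd1, Cd274, Pdcd1lg2, Cmtm6, Havcr2, Lag3, Vsir, Cd69, Cd80 and Cd86. They were taken by symbol from the 53700 genes listed for each library, and all 10 had at least 1 count. The gene set was chosen by its roles and by differences already seen between these 4 groups, so the genotype and age values of these genes are given as descriptions without p-values. Of the 17090 genes that passed the filter on low counts, 9 belong to the set, and Pdcd1lg2 does not.

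RNA was measured in bulk in microglia from whole brain, in mice of a C57Bl6J/FVB cross. The groups were WT at 6 weeks, Ercc1 KO at 6 weeks, WT at 12 weeks and Ercc1 KO at 12 weeks, with 4 libraries each. Cells had been sorted as DAPIneg, CD11bhigh, CD45int and Ly6cneg. Males and females were 2 and 2 in each 6-week group and 3 and 1 in each 12-week group, and no treatment is given. The labels state neither the alleles behind the KO label nor whether each library is a single animal, so tests measure the spread between these samples only. Ercc1 encodes a subunit of a DNA repair endonuclease. Its transcripts stood at 2.82 to 4.54 library-size-scaled counts (CPM) in 6-week KO and at 13.5 to 30.6 CPM in 6-week WT. At 12 weeks the ranges were 0.425 to 6.77 CPM in KO and 7.46 to 49.2 CPM in WT. Total counts per library lay between 7882182 and 22142972. The deepest library, 12-week WT replicate 5_6, is labelled male and held 349.6 CPM of Xist beside 112.6 CPM of Y-linked genes, on unscaled library sizes. By principal components of log2 CPM, 2 libraries of 12-week WT, replicates 3 and 8, were far from the rest, and 12-week KO replicate 4 stood apart from the other KO libraries, at -57.7 on the second component and -80.3 on the third, where the next lowest KO library had -14 and -8.47. All 5 microglia markers checked (P2ry12, Tmem119, Cx3cr1, Csf1r and Sall1) had counts in every group, with sums of 21600 to 42800 CPM.

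PD-1, the product of Pdcd1, is an inhibitory receptor best known from activated and exhausted T cells. It binds PD-L1 (Cd274) and PD-L2 (Pdcd1lg2), and CMTM6 keeps PD-L1 at the cell surface by protecting it from lysosomal degradation. TIM-3 (Havcr2), LAG-3 (Lag3) and VISTA (Vsir) are further inhibitory receptors, and microglia are known to express Havcr2 and Vsir. CD80 and CD86 are the ligands through which antigen-presenting cells engage CD28 and CTLA-4. CD69 is an early activation antigen that holds cells in tissue by removing the receptor S1PR1 from the surface.

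Promoter sequences are shown for the PD-1 axis genes and for Vsir, since these genes include those with the clearest upward and downward differences between KO and WT. RefSeq sequence of GRCm38.p6 was at hand for 7 of the 10 genes, and for none of Lag3, Cd69 and Cd86. The deposited counts were made on another build, GRCm39, so the positions belong to the sequences only. The windows end at the base before the annotated start and lie at chr1:94052554-94052803 (minus strand) for Pdcd1, chr19:29367309-29367437 (plus) for Cd274, chr19:29410669-29410918 (plus) for Pdcd1lg2, chr9:114730953-114731172 (plus) for Cmtm6 and chr10:60346601-60346850 (plus) for Vsir. For Cd274 only the 129 bases nearest to the start are shown, and for Cmtm6 the 30 bases nearest to the start are left out, because annotated UTRs reach into both windows. In a check against GENCODE transcripts of each gene, bases just after the start were found for all of the 7 genes but Cd274. Capitals mark motif matches, and each sequence runs 5′ to 3′ on the strand of its gene.
Pdcd1: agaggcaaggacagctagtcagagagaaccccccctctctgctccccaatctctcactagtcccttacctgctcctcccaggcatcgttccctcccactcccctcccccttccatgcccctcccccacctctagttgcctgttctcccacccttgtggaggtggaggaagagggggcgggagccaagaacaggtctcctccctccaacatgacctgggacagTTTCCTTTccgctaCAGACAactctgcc
Cd274: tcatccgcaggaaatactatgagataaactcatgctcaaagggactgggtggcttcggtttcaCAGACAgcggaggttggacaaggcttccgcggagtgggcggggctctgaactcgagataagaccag
Pdcd1lg2: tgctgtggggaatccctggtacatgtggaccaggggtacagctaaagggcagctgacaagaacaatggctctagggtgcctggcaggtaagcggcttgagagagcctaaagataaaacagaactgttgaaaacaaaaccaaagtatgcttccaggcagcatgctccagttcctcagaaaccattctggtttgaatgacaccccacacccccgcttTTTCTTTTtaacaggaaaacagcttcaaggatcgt
Cmtm6: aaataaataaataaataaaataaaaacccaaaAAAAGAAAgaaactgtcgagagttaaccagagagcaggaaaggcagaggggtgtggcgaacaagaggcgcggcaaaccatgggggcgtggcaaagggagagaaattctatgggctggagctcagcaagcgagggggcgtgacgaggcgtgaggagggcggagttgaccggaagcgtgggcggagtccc
Vsir: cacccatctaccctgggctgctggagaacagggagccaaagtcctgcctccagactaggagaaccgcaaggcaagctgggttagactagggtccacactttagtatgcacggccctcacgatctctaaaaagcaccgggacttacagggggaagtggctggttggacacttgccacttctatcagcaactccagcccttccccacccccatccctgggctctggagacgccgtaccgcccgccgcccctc

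Each of the 7 promoters was searched on both strands over 250 bases before the start for 3 motifs, and no matches overlapped. The interferon regulatory factor core AANNGAAA occurred in 4 of the 7, against 21.3% of all 32851 promoters in the table. It began 28 bases before the start in Pdcd1, 35 bases in Pdcd1lg2, 218 bases in Cmtm6, and 175 bases in Cd274. The match in Cd274 lies outside the stretch shown, in the part left out for an annotated UTR. The SMAD-type motif CAGACA occurred in 3 of the 7 and in 17.1% of all promoters. It began 14 bases before the start in Pdcd1, 66 bases in Cd274 and 80 bases in Havcr2. The PU.1 motif GAGGAAGT was found in Havcr2, 8 bases before the start, and in 2.4% of all promoters. The windows of Vsir and Cd80 held none of the 3. A match describes letters in a window and is not a measured binding site. Cd274 and Pdcd1lg2 are adjacent on chromosome 19, with 0 protein-coding genes between them in RefSeq.

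Pdcd1 (ENSMUSG00000026285), the PD-1 receptor gene, was low in WT microglia and about 8.15 times as high in KO at 6 weeks. In 6-week WT it stood at 4.85, 7.42, 4.27 and 8.86 CPM in replicates 1 to 4, and in 6-week KO at 63.8, 49.6, 53.5 and 40.2 CPM. The 12-week WT replicates 3, 4, 5_6 and 8 had 5.62, 7.60, 7.54 and 11.3 CPM, and the 12-week KO replicates 1 to 4 had 68.3, 70.7, 29.1 and 86.7 CPM. Every KO library lay above every WT library at both ages, and KO replicate 3 was the lowest of the 12-week KO libraries. Means were 6.35 ± 2.16 CPM in WT and 51.8 ± 9.78 CPM in KO at 6 weeks (SD, n = 4), and 8.01 ± 2.37 and 63.7 ± 24.5 CPM at 12 weeks, a ratio of 7.95. The fitted log2 fold change of KO against WT was 3.05 ± 0.32 (SE) at 6 weeks and 2.96 ± 0.32 at 12 weeks. Which genes of the set were past the threshold of the fit over all genes, an adjusted p of 0.05, is stated only as a description, since these contrasts chose the set.

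Cd274 (ENSMUSG00000016496), which encodes the ligand PD-L1, was also higher in KO, with the larger ratio at 12 weeks. The 6-week WT replicates 1 to 4 had 13.4, 9.25, 5.77 and 14.6 CPM, and the 6-week KO replicates had 32.2, 14.0, 31.9 and 31.6 CPM. KO replicate 2 lay within the WT range, and the other KO libraries lay above it. At 12 weeks the WT replicates 3, 4, 5_6 and 8 had 1.30, 1.99, 4.17 and 1.48 CPM, and the KO replicates 1 to 4 had 28.8, 33.2, 16.7 and 10.7 CPM. These groups did not overlap, and WT replicate 5_6, the library with mixed sex markers, was the highest of the WT. Means at 6 weeks were 10.7 ± 4.02 CPM in WT and 27.4 ± 8.98 CPM in KO (SD, n = 4), a ratio of 2.55 and a log2 change of 1.40 ± 0.41 (SE), which was not past the threshold. At 12 weeks they were 2.23 ± 1.32 and 22.3 ± 10.4 CPM, a ratio of 9.999 and a log2 change of 3.32 ± 0.44, which was past it. That change was 3.77 without WT replicate 5_6 and 3.0 without WT replicates 3 and 8. The level in WT was lower at 12 than at 6 weeks in every library (log2 change -2.39 ± 0.43, not past the threshold). In DESeq2 and without the filter on low counts that change in WT was past it. In KO the ages overlapped (-0.47 ± 0.41). The genotype effects at both ages differed by 1.92 ± 0.58 on the log2 scale, not past the threshold. Exons of a gene on the opposite strand overlap Cd274 in GENCODE, and since the strand setting of the counting is not given in the sources used here, reads of the pair cannot be told apart.

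Pdcd1lg2 (ENSMUSG00000016498), the gene of the second PD-1 ligand PD-L2, had no count in any of the 8 WT libraries. In KO it had 6 counts in replicate 1 at 6 weeks, 16 in replicate 3 and 7 in replicate 4 at 12 weeks, and 0 in the other KO libraries. The highest level was 1.97 CPM. Set against a floor of 3 counts over the 4 WT libraries, the 12-week KO mean of 0.712 ± 0.935 CPM (SD, n = 4) was at least 12.4-fold higher, and at least 5.07-fold higher without KO replicate 3. At 6 weeks a single library carried all the counts, and no fold is given. Floors cover counting error only, since amplified reads without molecular identifiers are not independent molecules.

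Cmtm6 (ENSMUSG00000032434), the stabiliser of PD-L1 protein, went the opposite way from the receptor and its ligand. The 6-week WT replicates 1 to 4 had 2175, 2118, 2429 and 2234 CPM and the 6-week KO replicates had 1786, 1756, 1807 and 1538 CPM. The 12-week WT replicates 3, 4, 5_6 and 8 had 1579, 1968, 1563 and 1463 CPM and the 12-week KO replicates 1 to 4 had 1152, 1081, 1240.0 and 1182 CPM. Every KO library lay below every WT library of its age, and every 12-week library lay below every 6-week library of its genotype. Means descended in the order 6-week WT (2239 ± 135 CPM, SD, n = 4), 6-week KO (1722 ± 124), 12-week WT (1643 ± 222) and 12-week KO (1164 ± 66.2), and the middle pair overlapped. The log2 change of KO against WT was -0.38 ± 0.09 (SE) at 6 weeks, not past the threshold, and -0.50 ± 0.09 at 12 weeks, past it. At 6 weeks it was past the threshold in DESeq2, with RLE scaling, without the filter on low counts, without the sex term, in a fit to the 6-week libraries alone, and without 12-week WT replicate 4, replicate 8, or replicates 3 and 8 together. With age it was -0.43 ± 0.09 in WT and -0.55 ± 0.09 in KO, neither past the threshold. Both age changes were past it in DESeq2, without the filter on low counts, and without 12-week WT replicate 4. The age change in KO was also past it without the sex term. Without 12-week WT replicates 3 and 8 the age change in WT was -0.30, and that in KO passed the threshold at -0.54.

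**Figure D1:**
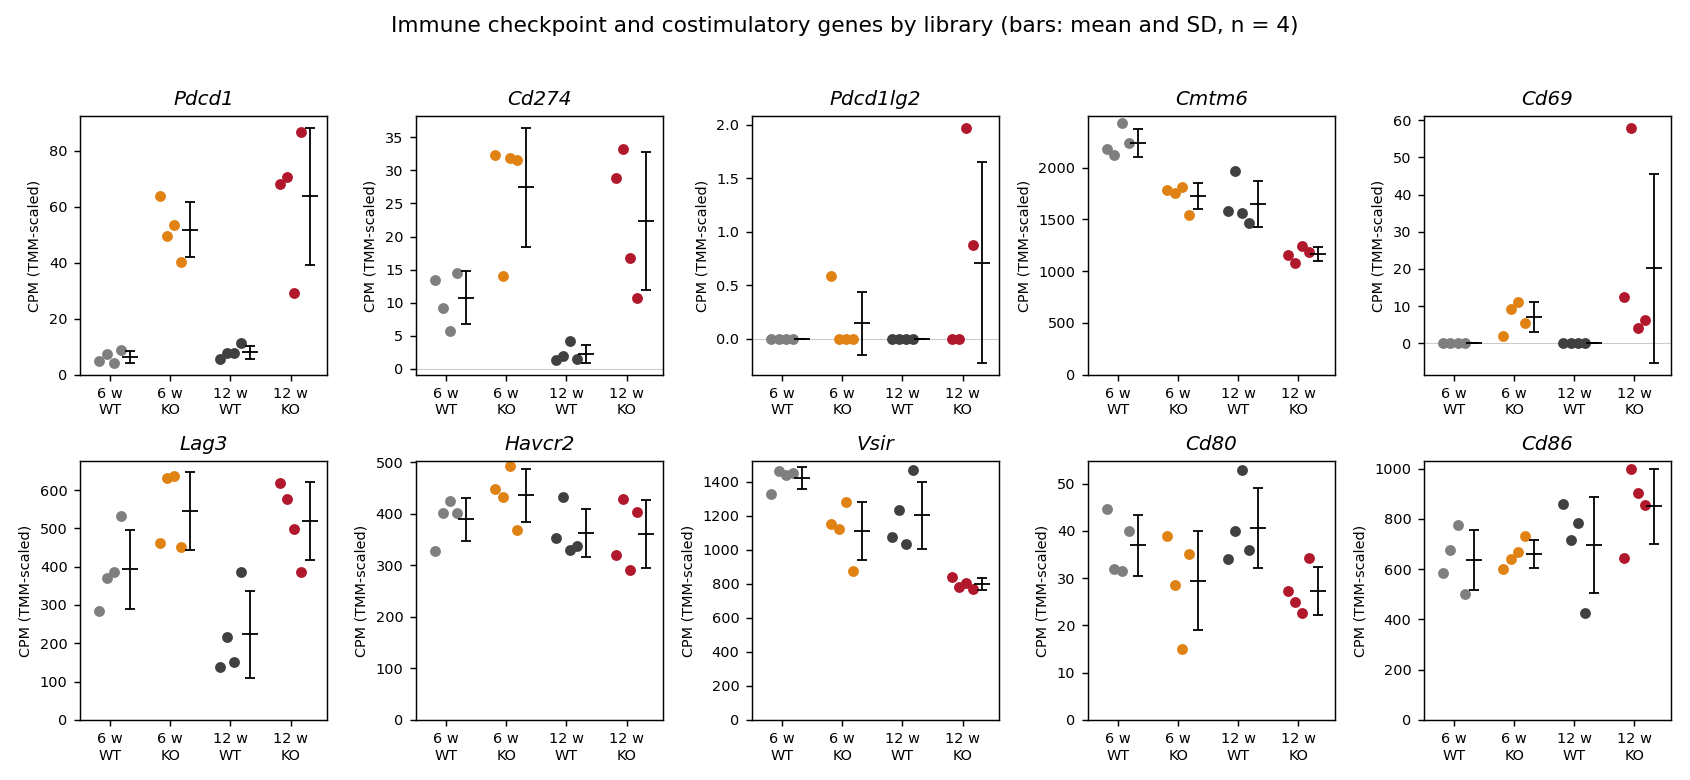
Levels of the 10 genes in each of the 16 libraries, as CPM on TMM-scaled library sizes, by group; points are libraries, and bars give mean and SD of 4 libraries. Pdcd1 lay above the WT range in all 8 KO libraries, Cd69 had counts in KO libraries only, and Cmtm6 and Vsir were lowest in 12-week KO.

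Read across the whole table, 149 of 17090 genes passed the threshold between KO and WT at 6 weeks (0.872%), 136 of them higher in KO (0.796%) and 13 lower (0.0761%). At 12 weeks 510 passed (2.98%), 347 higher (2.03%) and 163 lower (0.954%). Of the 9 tested genes of the set, 2 passed at 6 weeks, Pdcd1 and Cd69, both higher in KO. DESeq2, which called 366 of all genes at 6 weeks, called 4 of the set, adding Cd274 and Cmtm6. At 12 weeks 6 of the set passed in edgeR, with Pdcd1, Cd274, Lag3 and Cd69 higher and Cmtm6 and Vsir lower. Havcr2, Cd80 and Cd86 passed at neither age. In a fit to the 12-week libraries alone, Pdcd1, Cd274 and Cd69 passed and Lag3, Cmtm6 and Vsir did not, with log2 changes of 1.27, -0.49 and -0.58. Since the set was chosen from these contrasts, nothing is read from these counts. Groups that did not overlap between KO and WT made up 7.88% of all genes tested at 6 weeks and 8.20% at 12 weeks. In the set, Pdcd1 and Cd69 lay wholly above WT and Cmtm6 and Vsir wholly below it at 6 weeks, and Cd274 joined the former at 12 weeks. The median log2 change of the 9 genes was 0.16 at 6 weeks and 0.30 at 12 weeks, against -0.02 and -0.03 over all genes tested. The set was chosen from these contrasts, so that difference is a description too.

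Of the other inhibitory receptors, Lag3 was higher and Vsir lower in 12-week KO, and the Havcr2 libraries of both genotypes overlapped. Lag3 (ENSMUSG00000030124) stood at 285, 370.04, 386 and 533 CPM in 6-week WT replicates 1 to 4 and at 463, 633, 636 and 450.4 CPM in 6-week KO. In 12-week WT replicates 3, 4, 5_6 and 8 it stood at 138, 216, 152 and 386 CPM, and in 12-week KO replicates 1 to 4 at 618, 576, 499.7 and 386 CPM. The groups overlapped at both ages, at 12 weeks through WT replicate 8 and KO replicate 4, which had almost the same level. Means were 394 ± 103 and 545 ± 103 CPM at 6 weeks (SD, n = 4) and 223 ± 114 and 519.9 ± 102 CPM at 12 weeks, in WT and KO. The log2 change was 0.48 ± 0.28 (SE) at 6 weeks, not past the threshold, and 1.23 ± 0.29 at 12 weeks, past it. That call was lost when 12-week WT replicate 3, 4 or 5_6 or 12-week KO replicate 1, 2 or 3 was left out, with log2 changes from 1.06 to 1.66 over all 8 omissions. Without WT replicates 3 and 8 together the change was 1.49, and without KO replicate 4, which stood apart by principal components, it was 1.37, both past the threshold.

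Vsir (ENSMUSG00000020101) encodes VISTA, a B7-type checkpoint protein of myeloid cells. It had 1329, 1465, 1439 and 1452 CPM in 6-week WT replicates 1 to 4 and 1153, 1119.7, 1282 and 875 CPM in 6-week KO. The 12-week WT replicates 3, 4, 5_6 and 8 had 1073, 1231, 1035 and 1468 CPM and the 12-week KO replicates 1 to 4 had 841, 781, 804 and 766 CPM. Every KO library lay below every WT library of its age. Means were 1421 ± 62.4 and 1107 ± 169.9 CPM at 6 weeks (SD, n = 4) and 1202 ± 197 and 798 ± 32.6 CPM at 12 weeks. The log2 change was -0.36 ± 0.12 (SE) at 6 weeks, not past the threshold, and -0.59 ± 0.12 at 12 weeks, past it. With age it was -0.23 ± 0.12 in WT and -0.46 ± 0.12 in KO, neither past the threshold. The age change in KO was past it in DESeq2 and without the filter on low counts. Vsir lies within the span of Cdh23 on the opposite strand, without shared exon sequence in GENCODE.

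Havcr2 (ENSMUSG00000020399), the TIM-3 gene, overlapped between genotypes at both ages. Its libraries ranged from 328 to 425 CPM in 6-week WT, 369 to 492 CPM in 6-week KO, 329 to 433 CPM in 12-week WT and 291 to 429 CPM in 12-week KO. The log2 change of KO against WT was 0.16 ± 0.14 (SE) at 6 weeks and -0.01 ± 0.14 at 12 weeks. Neither passed the threshold.

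The ligands of CD28 and CTLA-4 did not pass the threshold at either age. Cd80 (ENSMUSG00000075122) had 44.7, 31.9, 31.5 and 39.9 CPM in 6-week WT replicates 1 to 4 and 39.0, 28.6, 15.04 and 35.2 CPM in 6-week KO. At 12 weeks the WT replicates 3, 4, 5_6 and 8 had 34.1, 39.98, 52.8 and 35.9 CPM and the KO replicates 1 to 4 had 27.3, 24.9, 22.7 and 34.2 CPM. In the 12-week groups only KO replicate 4 reached into the WT range. The log2 change was -0.35 ± 0.22 (SE) at 6 weeks and -0.58 ± 0.22 at 12 weeks. Cd86 (ENSMUSG00000022901) ranged from 502 to 777 CPM in 6-week WT, 599 to 733 CPM in 6-week KO, 423 to 859 CPM in 12-week WT and 643 to 997 CPM in 12-week KO. Its log2 change was 0.07 ± 0.18 at 6 weeks and 0.30 ± 0.18 at 12 weeks, and WT replicate 8 held the lowest level of all libraries.

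Cd69 (ENSMUSG00000030156), the activation antigen, had 0 counts in all 8 WT libraries and counts in all 8 KO libraries. The 6-week KO replicates 1 to 4 had 2.05, 9.20, 11.1 and 5.46 CPM, from 21, 160, 104 and 95 counts. The 12-week KO replicates 1 to 4 had 12.3, 57.9, 4.06 and 6.27 CPM, from 122, 545, 33 and 50 counts. Replicate 2 stood far above the others at 12 weeks, and the ages overlapped. Against the floor of 3 counts over the WT group, the KO mean was at least 90.2-fold higher at 6 weeks (6.95 ± 4.02 CPM, SD, n = 4) and at least 349.5-fold higher at 12 weeks (20.1 ± 25.4 CPM). Without KO replicate 2 the 12-week bound was 131-fold, and without the deep WT replicate 5_6 it was 196-fold. Cd69 passed the filter on low counts through the KO groups alone, so that it was past the threshold at both ages is a description. At 6 weeks it was no longer past it when any one of the 8 libraries of the comparison, or 12-week KO replicate 1 or 4, was left out.

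In 12-week KO replicate 2, 4 of the marker lists of other cells also had their highest sum of the group. Those of B cells, border-associated macrophages, neurons, astrocytes, oligodendrocytes and endothelial cells did not. The 4 sums stood at 13.8 CPM for T and NK cells, 40.1 CPM for dendritic cells, 31.6 CPM for monocytes and 10.1 CPM for neutrophils. The other 12-week KO libraries reached at most 6.16, 23.0, 20.2 and 0.376 CPM. The part of these cells in the Cd69 level was not tested.

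Set against age, 0 of the 9 tested genes passed the threshold in KO and 0 in WT, in edgeR's test over all genes. At an unadjusted p of 0.05, 3 would have been counted in KO and 3 in WT, and DESeq2 called 2 in each. The DESeq2 calls were Cmtm6 and Vsir in KO and Cd274 and Cmtm6 in WT. The fit without the filter called the same genes, and Lag3 in WT, among 204 and 194 of all 29343 genes. Over all 17090 genes DESeq2 called 270 in KO and 150 in WT. The share of all genes under that unadjusted p is not given here, so nothing is read from those counts. In edgeR's test 4 of all genes passed in KO (0.0234%) and 2 in WT (0.0117%). The libraries of the ages did not overlap for 6.57% of all genes in KO and 5.31% in WT. In the set this held for Cmtm6 and Vsir in KO and for Cd274 and Cmtm6 in WT, each lower at 12 weeks. For the difference between the genotype effects at the ages, 0 of the 9 passed, 1 had an unadjusted p under 0.05, DESeq2 called 0, and 1 gene of all passed (0.00585%). The comparisons of genotype and of age share their libraries, so their values are set side by side and are not independent.

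**Figure D2:**
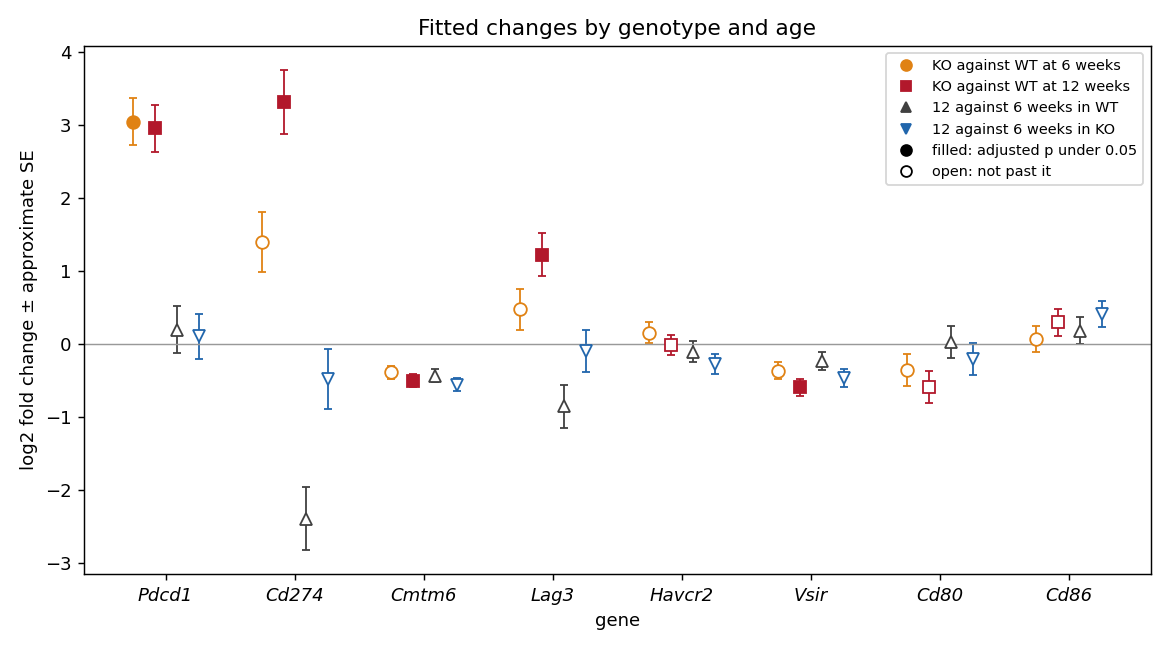
Fitted log2 fold changes with approximate SE for 8 genes in the 4 comparisons of genotype and age; filled symbols passed an adjusted p of 0.05 over all genes. Cd69 and Pdcd1lg2 are not drawn because their WT groups hold no counts. Pdcd1 changes by about 3 between genotypes at both ages, and Cd274 shows its lowest value, -2.39, for age in WT.

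Sex was not used in choosing the genes, and its term in the fit gave a separate test. None of the 9 genes differed between females and males after Benjamini-Hochberg adjustment over all genes in edgeR's quasi-likelihood test (0 of 9, each with an adjusted p of 1), and DESeq2 also called 0. Over all genes 5 passed (0.0293%). Unadjusted, 2 had p under 0.05, and the share of all genes under it is not given here. Cd80 had a log2 change of -0.48 ± 0.17 in females against males (unadjusted p = 0.0116 in edgeR), and Cd274 one of -0.70 ± 0.31 (unadjusted p = 0.0401 in edgeR). The log2 changes of the other 7 lay between -0.48 for Pdcd1 and 0.23 for Cd86. The count stayed at 0 without 12-week WT replicate 5_6. Each 12-week group held 1 female, which in WT was replicate 3, far from the rest by principal components. Cd69 was among the 9 through its counts in KO libraries only.

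Among the members, log2 CPM of Pdcd1 and Cd69 correlated with r = 0.94 over 16 libraries, and the deviations from the group means with r = 0.21. For Cmtm6 and Vsir the values were 0.87 and 0.25. Lag3 and Vsir showed the reverse, with -0.14 over all libraries and 0.77 for the deviations, and Lag3 and Cd86 had -0.19 and -0.70. The points share libraries, depth and scaling, and these values are descriptions. Cd69 had no count in any WT library, so its log2 CPM was the same in all of them. Its r over 16 libraries thus largely restates the difference between KO and WT, and its deviations vary in KO libraries only.

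Outside the set, 9834 genes with a mean of at least 5 CPM were ranked by the correlation of their log2 CPM with each called gene over the 16 libraries. Nearest to Pdcd1 were Il1rn (r = 0.96), Cst7 (0.96) and Ctsz (0.96). Il1rn encodes the interleukin-1 receptor antagonist, and Cst7 a cystatin that inhibits lysosomal proteases. Nearest to Cd274 were Axl (0.92), a receptor kinase that binds dying cells through a bridging ligand, Ptdss1 (0.90) and Fam20c (0.90). Nearest to Lag3 were Ctsd (0.91), which encodes the lysosomal protease cathepsin D, Man2b1 (0.91) and Csf1 (0.91). Nearest to Cd69 were the class I MHC genes H2-D1 (0.98) and H2-K1 (0.97), and Il1rn (0.98). Since the WT libraries hold no Cd69 count, these values also largely restate the difference between KO and WT.

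Nearest to Cmtm6 were Cx3cr1 (0.96), the fractalkine receptor gene, P2ry13 (0.94), a purine receptor gene, and Golm1 (0.93). For Vsir they were Selplg (0.94), Cx3cr1 (0.92) and P2ry13 (0.91). Within groups the correlations of all these pairs were lower, from 0.40 for Cd274 with Axl to 0.87 for Cmtm6 with Golm1. Those of Cd69 rest on its KO libraries only.

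The neighbourhood of these genes was described with a list of 57 other checkpoint, costimulation and signalling genes, of which 41 passed the filter. This list was also drawn up with earlier results of these data known. Its counts, medians and adjusted p-values are therefore descriptions and not independent of these data. At 6 weeks 3 of the 41 rose in KO and 0 fell, and at 12 weeks 4 rose and 1 fell, where 0.872% and 2.98% of all genes passed. The median log2 change was 0.09 and 0.34, against -0.02 and -0.03 over all genes tested. With age 0 of the 41 passed in KO and 0 in WT in edgeR's test, with 13 and 7 at an unadjusted p under 0.05 and 4 and 1 in DESeq2. DESeq2 called 270 and 150 of all genes there, and the share of all genes under that unadjusted p is not given here. None passed for the difference between the genotype effects (0 of 41 in edgeR, 4 unadjusted, 1 in DESeq2).

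The SLAM family, receptors that mostly bind their own kind on leukocytes, had 2 of 5 members rise at each age in edgeR's test. At an unadjusted p under 0.05 there were 3 at 6 weeks and 4 at 12 weeks. DESeq2 called 3 at each age, adding Cd48, whose KO libraries lay above all WT libraries of their age. Cd244a was past the threshold at 12 weeks without the filter on low counts. Ly9 (ENSMUSG00000004707) stood at 23.0, 32.7, 18.2 and 29.1 CPM in 6-week WT replicates 1 to 4 and at 109, 117, 69.3 and 75.9 CPM in 6-week KO. In the 12-week groups it had 18.3, 17.5, 13.3 and 8.55 CPM in WT replicates 3, 4, 5_6 and 8 and 181, 231, 84.5 and 190.2 CPM in KO replicates 1 to 4. All KO libraries lay above all WT libraries. The log2 change was 1.85 ± 0.32 at 6 weeks (edgeR adjusted p = 0.00743) and 3.55 ± 0.34 at 12 weeks (edgeR adjusted p = 2.08e-05). Cd84 (ENSMUSG00000038147) rose by 0.48 ± 0.10 on the log2 scale at 6 weeks (edgeR adjusted p = 0.0419) and by 0.86 ± 0.10 at 12 weeks (edgeR adjusted p = 0.000165). Its means at 12 weeks were 258 ± 24.4 CPM in WT and 469 ± 42.1 CPM in KO (SD, n = 4). The 6-week call of Ly9 held in all 8 fits that left out 1 library of the comparison. That of Cd84 was lost without WT replicate 1, 2, 3 or 4 or KO replicate 1, 2 or 3. It was also lost in a fit to the 6-week libraries alone, with a replicate term in place of sex, and without the filter. The same held without 12-week WT replicate 4 or 8, WT replicates 3 and 8 together, or 12-week KO replicate 1, 2 or 4.

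Of the myeloid inhibitory receptors and their ligands, 1 of 7 tested genes rose at each age in edgeR's test and in DESeq2. At an unadjusted p under 0.05 there were 1 at 6 weeks and 3 at 12 weeks. Lilrb4a (ENSMUSG00000112148), an inhibitory immunoglobulin-like receptor, had 1.51 to 5.61 CPM in 6-week WT and 30.3 to 53.8 CPM in 6-week KO. It had 0 to 5.09 CPM in 12-week WT and 30.9 to 77.7 CPM in 12-week KO. The log2 change was 3.69 ± 0.69 at 6 weeks (edgeR adjusted p = 0.0171) and 4.08 ± 0.70 at 12 weeks (edgeR adjusted p = 0.00371). It has a close copy, Lilrb4b, and how reads shared by both were counted is not given in the sources used here. The 6-week call was lost without WT replicate 1, 2 or 4 or KO replicate 2. The 12-week call was lost with a replicate term in place of sex. Cd47 and its receptor gene Sirpa, which together restrain phagocytosis, had log2 changes from -0.11 to 0.07 and did not pass.

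Of the ligands of TIM-3, LAG-3 and VISTA, 0 of 4 tested genes passed at 6 weeks in edgeR's test, with 2 at an unadjusted p under 0.05 and 1, Selplg, called by DESeq2. Selplg also passed at 6 weeks without the filter on low counts. At 12 weeks 1 rose and 1 fell. Lgals9 (ENSMUSG00000001123) encodes galectin-9, a ligand of TIM-3. It rose from 415 ± 23.8 CPM in WT to 637 ± 125 CPM in KO at 12 weeks (SD, n = 4), a log2 change of 0.62 ± 0.12 (edgeR adjusted p = 0.00914). Selplg (ENSMUSG00000048163) encodes PSGL-1, a selectin ligand in leukocyte rolling that also binds VISTA. It fell from 8103 ± 723 to 5762 ± 327 CPM, a log2 change of -0.49 ± 0.07 (edgeR adjusted p = 0.000797). All KO libraries lay above WT for Lgals9 and below WT for Selplg. In a fit to the 12-week libraries alone Lgals9 missed the threshold (edgeR adjusted p = 0.0839), and it also missed it with a replicate term in place of sex.

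Among signalling genes and regulators, Irf1, which encodes a transcription factor of interferon responses, had a log2 change of 0.63 ± 0.19 at 12 weeks and did not pass (edgeR adjusted p = 0.108). The receptor genes of interferon gamma, Ifngr1 and Ifngr2, had -0.41 ± 0.11 and 0.34 ± 0.11 at 12 weeks without passing (edgeR adjusted p = 0.0593 and 0.121). DESeq2 called all 3 of them at 12 weeks. Ifngr1 also passed without the filter, without the sex term, with a replicate term in its place, and without 12-week WT replicate 8 or KO replicate 4.

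The CMTM family had 0 of 5 other members past the threshold at either age in edgeR's test, with 0 at 6 weeks and 1 at 12 weeks at an unadjusted p under 0.05. That gene was Cmtm7, with -0.36 ± 0.10 at 12 weeks (edgeR adjusted p = 0.0796), and DESeq2 called it. The TIGIT axis had 0 of 3 tested genes past the threshold in edgeR at either age, with 0 and 1 unadjusted at 6 and 12 weeks. Nectin2, a ligand in the TIGIT axis, had 1.31 ± 0.38 at 12 weeks (edgeR adjusted p = 0.0878). Nectin2 was past the threshold at 12 weeks in DESeq2, without the filter on low counts and without 6-week WT replicate 1. The TNF family of costimulation had 0 of 3 past the threshold in edgeR at either age, 0 unadjusted and 0 in DESeq2, and Tnfsf18, which is below the filter on low counts, passed at 12 weeks in the fit without it. Its 71 counts in 12-week KO came from 2 of the 4 libraries, with a mean of 1.82 CPM and a highest level of 6.77 CPM. Of the CD28 and B7 families, 0 of 5 tested passed in edgeR at either age, with 0 and 1 unadjusted at 6 and 12 weeks. The latter was Icosl, which encodes the ligand of ICOS, with 0.84 ± 0.25 at 12 weeks (edgeR adjusted p = 0.0942). Icosl was past the threshold at 12 weeks in DESeq2, without the filter and without 12-week WT replicate 4. Cd28 and Ctla4, which encode the receptors of Cd80 and Cd86, did not pass the filter on low counts. S1pr1, the target of CD69, had 1.05 ± 0.32 at 6 weeks (edgeR adjusted p = 0.24; past the threshold in DESeq2 and without the filter) and 0.48 ± 0.32 at 12 weeks (edgeR adjusted p = 0.575).

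**Figure D3:**
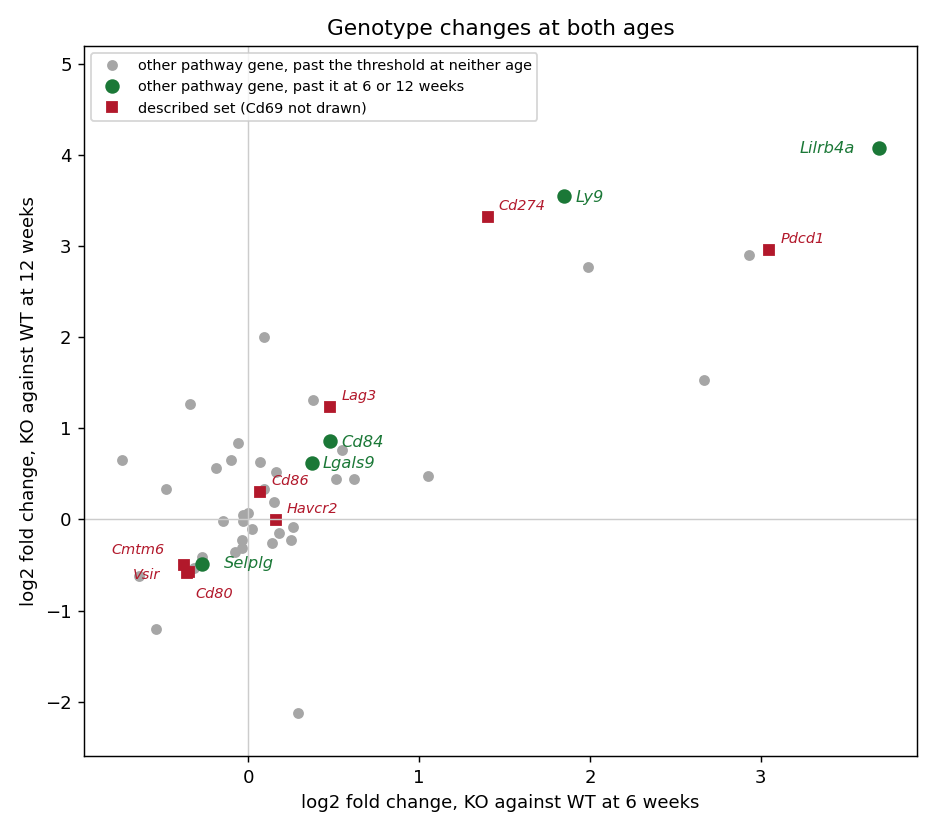
Log2 fold change of KO against WT at 6 weeks (horizontal) and at 12 weeks (vertical) for 8 genes of the set (squares) and the 41 other pathway genes tested (circles). Lilrb4a, Ly9, Cd84 and Lgals9 lie in the upper right with Pdcd1, Cd274 and Lag3, and Selplg lies in the lower left with Cmtm6, Vsir and Cd80.

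Several of these genes are best known from lymphocytes, so markers of other cells were summed per library. The 16 T and NK cell markers summed to 4.53 to 9.59 CPM in 6-week WT, 3.74 to 7.59 CPM in 6-week KO, 5.03 to 12.98 CPM in 12-week WT and 5.27 to 13.8 CPM in 12-week KO. All 4 groups overlapped in this sum, and Cd8a, Trbc2, Cd2, Nkg7, Gzmb and Ncr1 were at 0 in all of them. Single markers differed in direction. Klrd1 had 4.463 to 10.06 CPM in 12-week WT and 0 to 4.186 CPM in 12-week KO. At 6 weeks it had 3.126 to 7.16 CPM in WT and 1.035 to 3.277 CPM in KO. Cd5, which overlapped, reached 2.005 CPM in 12-week WT and 8.715 CPM in 12-week KO. Cd3e, Cd3g and Trac had counts in 6-week KO only. The overlap of the sums thus does not hold for each marker. The 7 dendritic cell markers also overlapped between all groups, at 11.8 to 40.1 CPM, with Clec9a at 0. The 4 B cell markers summed to 23.8 to 92.3 CPM, with Cd79b the one marker that had counts in every group.

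The list for border-associated macrophages, which line meninges and vessels, had higher sums in KO. The 6 genes summed to 48.9 to 90.3 CPM in 6-week WT and 104 to 274 CPM in 6-week KO, and to 6.06 to 53.6 CPM in 12-week WT and 100.3 to 156 CPM in 12-week KO, with counts for 6 of 6 genes in every group. The 5 monocyte markers summed to 2.85 to 12.1 and 9.37 to 36.6 CPM at 6 weeks and to 1.08 to 10.7 and 14.8 to 31.6 CPM at 12 weeks, in WT and KO. These sums overlapped at 6 weeks. F10 was at 0 in all groups and Ly6c2 had 3 counts in 6-week WT and 0 elsewhere, so the KO sums came from Ccr2, Plac8 and Fn1. By median both lists were higher in the groups where Pdcd1, Cd274 and Cd69 were higher, and their part in those levels was not tested. The microglia markers summed to 40070 to 42800 CPM in WT and 30370 to 35970 CPM in KO at 6 weeks, and to 33240 to 38880 and 21600 to 25970 CPM at 12 weeks. This sum was lowest in the group where Cmtm6 and Vsir were lowest, and its part in their levels was not tested. In bulk samples, fewer cells of a type and less RNA per cell cannot be told apart.

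**Figure D4:**
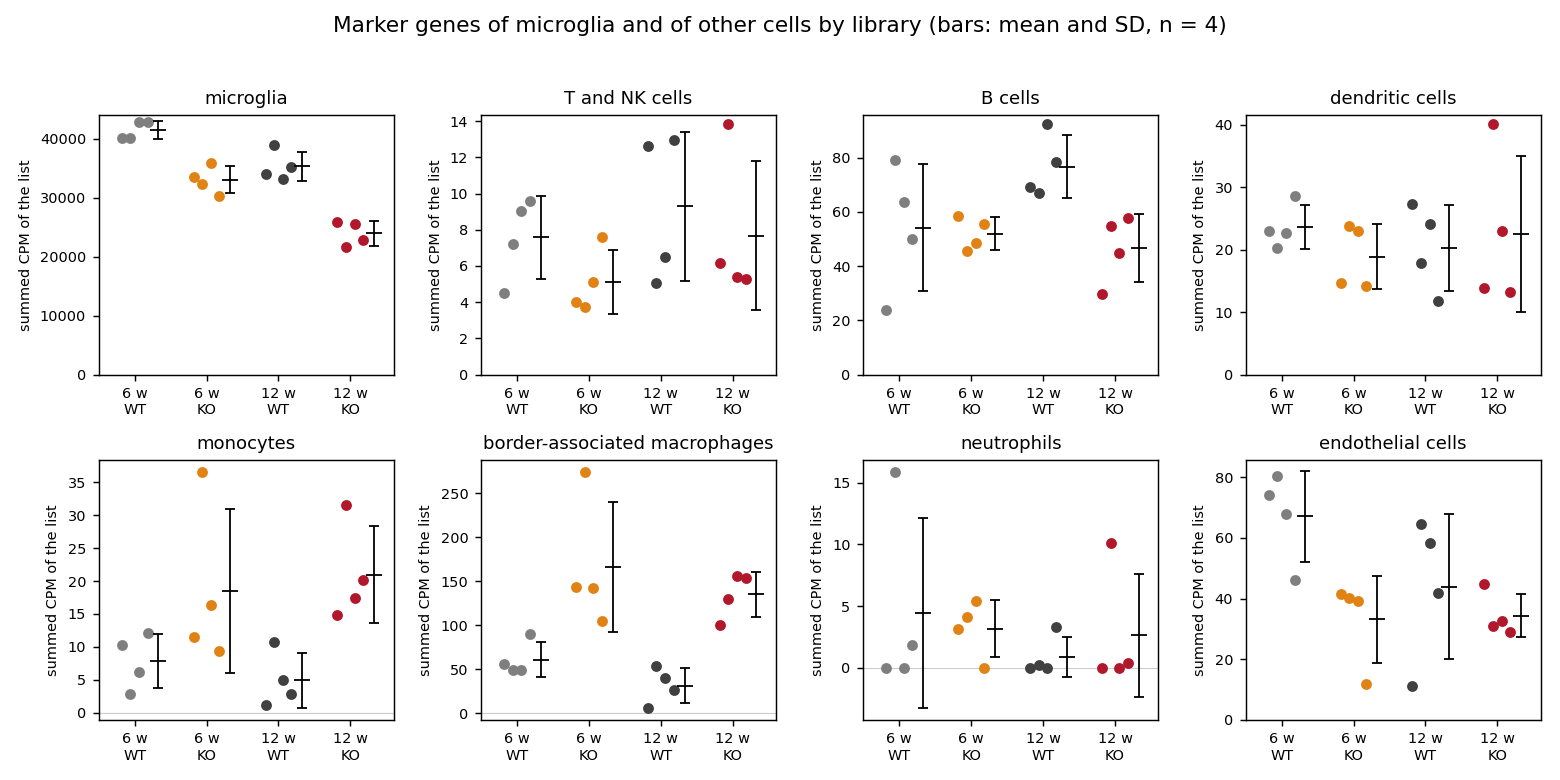
Summed CPM of marker genes of microglia and of 7 other cell types in each library, by group; points are libraries, bars mean and SD of 4. The T and NK cell sums overlap between all groups, while the sums of border-associated macrophages are higher in both KO groups than in the WT group of the same age.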

How the data were processed

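The authors deposited raw read counts per gene for each of 16 libraries, with an Ensembl identifier and a symbol in each of 53700 lines. A deposited table of the whole series held the same counts for all 36935 symbols compared (100%) and served as a check. Per the labels' protocols, libraries were made with a low-input kit and read on a NovaSeq instrument. The tools listed by the submitters' processing notes, without roles, are HTSeq 0.11.0, TopHat, Picard 2.13.2, SAMtools 1.10, cutadapt 2.10 and FastQC 0.11.9, with GRCm39 as the build. How strand, annotation version and reads shared by genes were treated is not given in the sources used here.

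From the counts, edgeR 4.0.16 and limma 3.58.1 in R 4.3.3 were used. Genes were kept by filterByExpr by group with a minimum count of 10, and libraries were scaled by TMM. A robust quasi-likelihood fit over all 17090 genes and 16 libraries had terms for the 4 groups and sex, with a common dispersion of 0.421. Benjamini-Hochberg adjustment of the two-sided p-values covered all genes tested, and the threshold was 0.05. The SE of a log2 change is its size over the square root of the F statistic, and is not given for Cd69, whose WT groups hold no counts. Levels are CPM, counts over the TMM-scaled library size as edgeR gives them, and are compared within a gene only. The script was tested on simulated data with a fixed dispersion below the common one of these data and with changes in well-counted genes only. That test does not cover genes of low counts. The members and lists were chosen with earlier results of these data known, and a few listed genes are not reported here. All 10 members are named, with the list genes past the threshold in any of 5 comparisons and, for each called member, the 3 genes of most similar pattern outside predicted genes. Further pathway genes (Cd47, Sirpa, Cd48, Cd244a, Irf1, Ifngr1, Ifngr2, Cmtm7, Nectin2, Icosl, Tnfsf18, S1pr1, Cd28 and Ctla4) were named after their values were seen. Alternatives were RLE scaling, DESeq2 1.42.0, no filter, no sex term, only the libraries compared, a replicate block, and libraries left out.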

Additional observations from a re-analysis of the deposited data

Results flagged for a closer look

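In the 56 sets of 4 libraries examined (10 members and 5 list genes in 4 groups, less the groups without a count), 3 held a library far from the others by Dixon's criterion, which chance meets in about 1 of 20 sets. That rate is for normally distributed values, and 3 of 56 is near it. Cd274 in 6-week KO was lowest in replicate 2, at 13.97 CPM, with the nearest library at 31.62 CPM. That library also had the highest sums of monocyte markers (36.62 CPM) and of border-associated macrophage markers (274.4 CPM) in its group, and their part was not tested. Pdcd1lg2 in 6-week KO had its only counts in replicate 1, at 0.5845 CPM, with the others at 0, a pattern that meets the criterion whatever the count. Cd69 in 12-week KO was highest in replicate 2, at 57.92 CPM, with the nearest at 12.33 CPM.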

How the results depend on the processing

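No named gene past the threshold changed direction under the alternatives run. Members past the threshold at 6 weeks (2) numbered 4 in DESeq2 and 1 to 3 with 1 library left out, and list genes (3) numbered 6 and 1 to 3. At 12 weeks members (6) numbered 3 in a fit to the 12-week libraries alone and 5 to 6 with 1 library left out. List genes at 12 weeks (5) numbered 12 in DESeq2, 10 without the filter and 5 to 6 with 1 library left out. Over all 17090 genes DESeq2 called 366 at 6 weeks and 1157 at 12 weeks. The fit without the filter called 353 and 1073 of 29343 genes, and that to the 12-week libraries alone called 204 of 14935. For age in KO, members (0) numbered 2 in DESeq2, 2 without the filter, 1 without the sex term, 1 without 12-week WT replicates 3 and 8 together and 0 to 1 with 1 library left out, and list genes (0) numbered 4 in DESeq2 and 3 without the filter. For age in WT, members (0) numbered 2 in DESeq2, 3 without the filter and 0 to 1 with 1 library left out, and list genes (0) numbered 1 and 2. For age over all genes, DESeq2 called 270 in KO and 150 in WT, and the fit without the filter 204 and 194. For the difference between the genotype effects, members (0) numbered 1 without the filter, and list genes (0) numbered 1 in DESeq2 and 1 without the filter. The causes were not tested. With the replicate block in place of sex, 2 members passed at 6 weeks and 4 at 12 weeks, without Vsir and Cd69. List genes numbered 2 at 6 weeks, without Cd84, and 4 at 12 weeks, without Lgals9 and Lilrb4a and with Ifngr1. Same-numbered libraries did not deviate together (r from -0.00 to 0.06 at 6 weeks and -0.01 for both shared numbers at 12 weeks), so the numbers are not taken as pairs. Low counts limit Pdcd1lg2, Cd69 and Cd274 in 12-week WT, where a floor of 3 counts is 0.0576 CPM over the group.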
